A study of Rattus norvegicus with 2 samples.

Results

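The transcription factors Cux1, Cux2, Rorb, Fezf2, Bcl11b, Foxp2, Tbr1, Tle4 and Etv1, which are widely used to tell the layers of the neocortex apart, were followed in nuclear RNA of the rat orbitofrontal cortex. They are 9 of the 25399 genes in the deposited gene tables, were taken by symbol, and all 9 were found in both libraries. The METH library came from male Sprague-Dawley rats of 8 weeks given methamphetamine, a psychostimulant, by intraperitoneal injection at 1 mg/kg for 7 days. The saline library came from male Sprague-Dawley rats of the same age that received saline injections over the same 7 days. Each library holds the orbitofrontal tissue of 4 animals, which cannot be separated, so each group has 1 library. No test of METH against saline was therefore possible, no p-value is given, and every interval below is a 95% interval that covers counting error only. An effect of METH cannot be told apart from any other difference between these libraries.

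The neocortex is built of layers of glutamatergic projection neurons, and neurons of each layer send their axons to characteristic targets. Upper-layer neurons project within the cortex, and neurons of the deep layers project to brainstem, spinal cord and thalamus. In many but not all cortical areas a granular layer between them receives thalamic input. The factors studied here take part in setting up these identities during development in the mouse, partly by repressing each other, and their expression persists to different degrees in the adult. Several also have known roles outside projection neurons, such as Cux2 and Bcl11b in interneurons.

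The METH library held 5543 barcodes and 44969322 UMIs (unique molecular identifiers, each counted as 1 RNA molecule), and the saline library 6969 barcodes and 42221257 UMIs. The median barcode had 6401 UMIs in the METH library and 4992 in the saline library, so METH nuclei were read more deeply. After filtering, 5159 METH and 6509 saline nuclei remained, and 9 barcodes occurred in both libraries. Nuclei were classed by marker genes that are not among the factors. Excitatory nuclei, those with Slc17a7, the vesicular glutamate transporter of cortical projection neurons, numbered 985 in the METH library (median 10293 UMIs) and 1203 in the saline library (median 7181 UMIs). An excitatory nucleus took a subclass where 1 of the 6 markers Otof, Hgf, Tll2, Vat1l, Vwc2l and Syt6 led it with at least 2 UMIs. The Otof gate held 96 METH and 60 saline nuclei, Vat1l 78 and 85, Vwc2l 115 and 189, and Syt6 51 and 24. The Hgf gate held only 22 nuclei in each library and Tll2 9 METH and 8 saline nuclei, while 614 METH and 815 saline excitatory nuclei took no subclass. Of 25 further markers fixed to check the subclasses, 8 were highest in their own gated subclass in both libraries, so the subclasses are called by their gate marker and given no layer or cell type name.

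Because the gates caught few nuclei, the levels are also given in clusters made over both libraries from variable genes without the 9 factors. These held 2149 METH and 3500 saline excitatory nuclei. Each of the 7 excitatory groups named below was a single cluster. A plural such as Vwc2l clusters means the METH and saline nuclei of that cluster. Of the same check markers, 12 of 25 were highest in their own cluster group in both libraries. A further cluster, with 198 METH nuclei and 1 saline nucleus, took no class, as did 5 other clusters, of which the largest held 181 METH and 226 saline nuclei. These are left out of the comparisons by cluster. One excitatory cluster, with 224 METH and 607 saline nuclei, was led by Pld5 and had no gate marker at the level set for a subclass. In the METH library 10.4% of excitatory cluster nuclei belonged to it, and in the saline library 17.3%. A level is in CPM, the UMIs of a gene over all UMIs of a set of nuclei, scaled in the usual way. Counts of 3' ends depend on the gene, so levels are compared between sets of nuclei and not between genes.

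Of the 9 factors, 7 have a promoter sequence in the RefSeq tables for the build GRCr8, from 250 bases before to 50 bases after the gene's start. Bcl11b and Foxp2 were not matched. The promoters of Cux2 and Rorb are shown because Cux2 was highest by far in Otof nuclei among the gated subclasses and Rorb was the one factor past 1.5-fold between the libraries over excitatory nuclei. The Cux2 window lies at chr12:40179032-40179331 on the plus strand, and its capitals mark the sequence ATCGAT, a core recognised by Cux proteins, at base 206 of the window. The Rorb window lies at chr1:225970924-225971223 on the minus strand, and both are written 5′ to 3′ along the gene.
Cux2: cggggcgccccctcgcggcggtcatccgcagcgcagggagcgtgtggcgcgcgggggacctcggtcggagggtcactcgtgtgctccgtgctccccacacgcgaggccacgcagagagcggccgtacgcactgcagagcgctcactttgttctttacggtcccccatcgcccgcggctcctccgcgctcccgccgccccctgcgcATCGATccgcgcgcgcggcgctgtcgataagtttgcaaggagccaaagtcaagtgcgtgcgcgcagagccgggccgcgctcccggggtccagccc
Rorb: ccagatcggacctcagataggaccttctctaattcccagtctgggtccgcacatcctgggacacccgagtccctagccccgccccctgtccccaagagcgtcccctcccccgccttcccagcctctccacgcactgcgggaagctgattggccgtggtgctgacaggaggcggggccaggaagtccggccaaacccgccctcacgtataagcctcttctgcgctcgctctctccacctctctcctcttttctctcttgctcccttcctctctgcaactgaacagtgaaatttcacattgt
The motifs searched on both strands were ATCGAT for Cux proteins, AGGTCA for nuclear receptors of the Ror type, AGGTGTGA for T-box factors, TGTTTAC for forkhead factors and CCGGAAGT for ETS factors. ATCGAT is its own reverse complement, none of the 5 motifs contains another, and of the 8 windows of the 7 matched factors only that of Cux2 held any of them. Of all 33469 promoters in the table, 0.896% held ATCGAT, 16.2% AGGTCA, 1.10% AGGTGTGA, 3.78% TGTTTAC and 3.81% CCGGAAGT. The Cux2 window is 73% G and C with 46 CpG dinucleotides and the Rorb window 60.7% with 15, against a median of 51.7% and 7 over all promoters. These matches describe letters in a window and not binding.

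Cux1 and Cux2 are homeodomain factors of upper-layer neurons that shape dendrites and synapses. Both were highest in the Otof gate. Cux2 (ENSRNOG00000001259) had 871 UMIs in METH and 364 in saline Otof nuclei, a level of 694 CPM (649 to 742) in METH and 703 CPM (633 to 780) in saline. The next gated subclass, Vwc2l, stood at 165 CPM in METH and 199.5 CPM in saline nuclei, well outside those intervals. In the Syt6 gate Cux2 had 1 UMI over 51 METH nuclei and none over 24 saline nuclei, where a count of 0 allows up to 18.5 CPM. The level in Otof nuclei over the other 5 gated subclasses together was 2.94 on the log2 scale in METH and 2.24 in saline. That is past 2-fold with its interval in both libraries, as for 0.733% of the 5732 genes measured in this comparison. Cux1 (ENSRNOG00000001424) was broader. It had 328 CPM (297 to 361) in METH and 278 CPM (235 to 328) in saline Otof nuclei, 149 and 172 CPM in Vwc2l nuclei, and was lowest in Hgf nuclei at 56.6 CPM in METH and 55.8 CPM in saline. Its Otof excess passed 2-fold with its interval in the METH library alone (log2 1.75), and in each library 4 of the 5 steps between neighbouring subclasses lay within counting error.

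In the clusters the Pld5 cluster joined the Otof nuclei for both genes. Cux2 had 723 CPM in METH and 673 CPM in saline Otof clusters and 515 and 485 CPM in the Pld5 cluster, while the next, Hgf, had 141 and 133 CPM. The Vwc2l clusters had only 9.75 CPM of Cux2 in METH and 15.9 CPM in saline, against 165 and 199.5 CPM in the Vwc2l gate. Cux1 was highest in the Pld5 cluster, at 343 CPM in METH and 335 CPM in saline, with Otof at 302 and 293 CPM. Its excess in the Pld5 cluster over the other clusters was 1.21 in METH and 1.42 in saline on the log2 scale, past 2-fold as for 0.767% of genes.

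**Figure D1:**
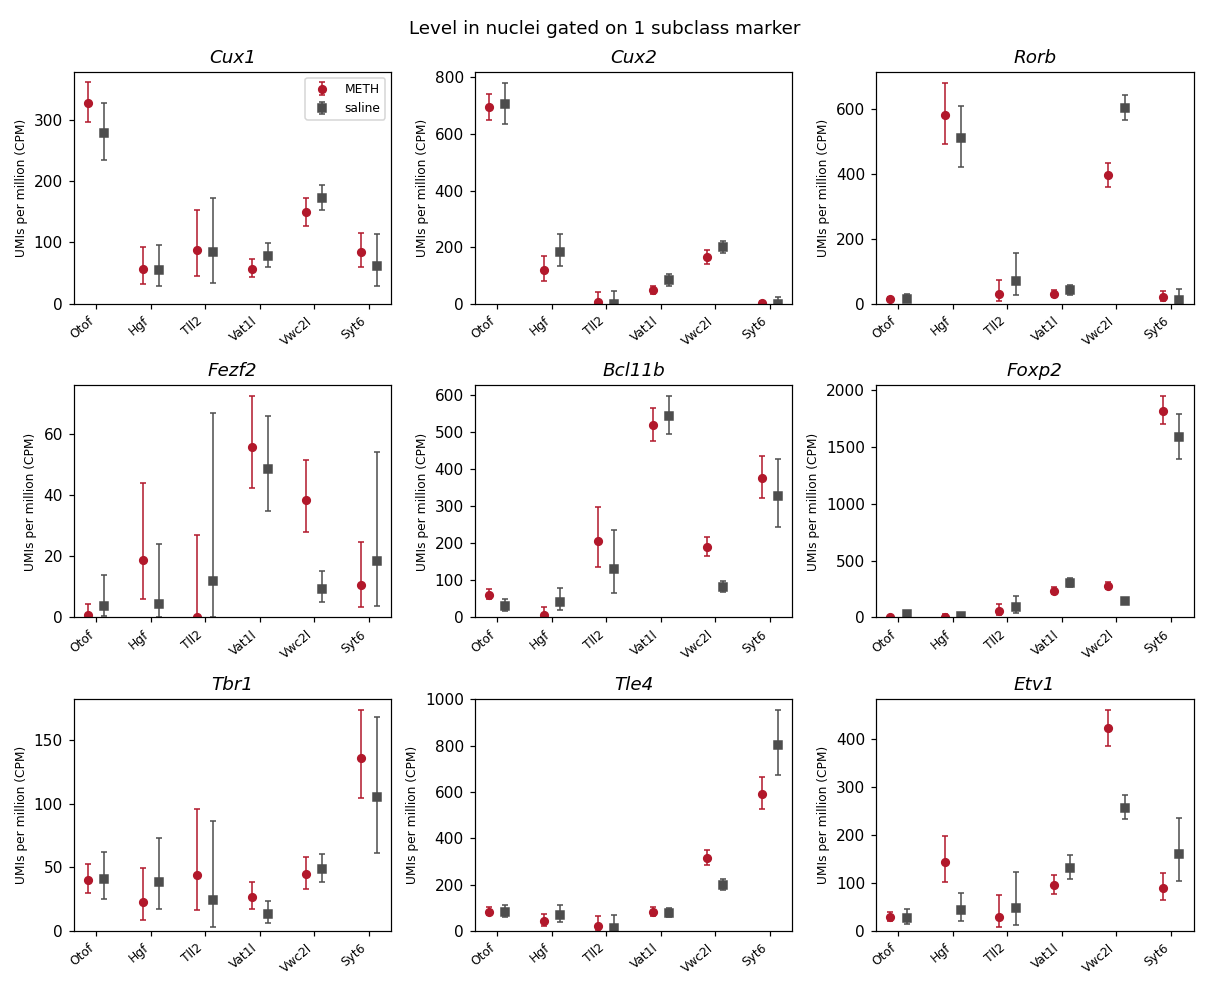
Level of each of the 9 factors (CPM) in the 6 excitatory subclasses set by 1 marker gene each, with 1 point per library (METH and saline) and bars for the 95% Poisson interval of the count. Cux2 peaks in Otof, Foxp2 in Syt6 and Etv1 in Vwc2l nuclei in both libraries, while the wide bars of the Hgf and Tll2 gates show how few nuclei these hold.

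Rorb, an orphan nuclear receptor, is known for layer IV and for the patterning of thalamic input. Among the gated subclasses, Rorb (ENSRNOG00000013413) was high in Hgf and Vwc2l nuclei and low in Otof and Syt6 nuclei. In the METH library it led in Hgf nuclei, with 581 CPM (493 to 681) from 154 UMIs against 397 CPM (361 to 434) in Vwc2l nuclei. In the saline library it led in Vwc2l nuclei, with 605 CPM (568 to 644) from 982 UMIs, and Hgf nuclei at 510.5 CPM (423 to 611) were within counting error of them. It was the only factor whose highest gated subclass differed between the libraries, and the other 8 had the same one in both. Otof nuclei had only 14.4 CPM in METH and 15.5 CPM in saline. In the clusters the order was the same in both libraries, with Pld5 and Hgf ahead. METH nuclei had 720.5 CPM (686 to 756) in the Pld5 cluster and 719.9 CPM (688 to 753) in the Hgf clusters, which could not be told apart, and saline nuclei had 914 CPM (885 to 943) and 785 CPM (758 to 812), which did not overlap. The Tll2 clusters followed with 193 CPM in METH and 240 CPM in saline. The Vwc2l clusters had only 146 CPM in METH and 162 CPM in saline, well below the Vwc2l gate. That gate mixed clusters, with 41.7% of its METH and 21.2% of its saline nuclei in the Vwc2l clusters. Another 13.9% and 31.2% lay in the Pld5 cluster.

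Fezf2, a zinc finger factor that directs subcerebral projection neurons, was the most sparsely counted of the 9 in excitatory nuclei, with 187 UMIs in METH and 133 in saline. Fezf2 (ENSRNOG00000009206) was highest in Vat1l nuclei in both libraries, at 55.9 CPM (42.3 to 72.4) in METH and 48.7 CPM (34.9 to 66.1) in saline, and every step to a neighbouring subclass was within counting error. Vwc2l nuclei had 38.5 CPM in METH and 9.24 CPM in saline, from only 45 and 15 UMIs. In the clusters, which hold more nuclei, it was highest in the Vwc2l clusters at 82.5 CPM in METH and 65.7 CPM in saline, with Vat1l at 51.7 and 56.7 CPM. The Otof clusters were nearly empty of it, at 0.747 CPM in METH and 1.91 CPM in saline.

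Bcl11b, known as Ctip2, acts downstream of Fezf2 in corticospinal neurons. Bcl11b (ENSRNOG00000005776) had 518 CPM (475 to 565) in METH and 544 CPM (495 to 596) in saline Vat1l nuclei, followed by Syt6 nuclei at 377 and 327 CPM. The Vat1l level over the other gated subclasses was 1.76 in METH and 2.67 in saline on the log2 scale, past 2-fold with its interval in both, as for 1.34% of genes. In the clusters it was high in 3 of the 7 excitatory groups. These were Vwc2l at 586 CPM in METH and 529 CPM in saline, Vat1l at 506 and 532.5 CPM, and Syt6 at 408 and 385 CPM. The Pld5 and Hgf clusters were the lowest, with 16.0 CPM in METH and 6.02 CPM in saline Pld5 nuclei and 6.31 and 8.22 CPM in Hgf.

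Etv1, an ETS-domain factor also known as Er81, marks a set of layer V neurons. Etv1 (ENSRNOG00000006867) led in Vwc2l nuclei, at 421.5 CPM (385 to 460) in METH and 257 CPM (233 to 283) in saline, and was lowest in Otof nuclei at 28.7 and 27.1 CPM. The Vwc2l excess over the other gated subclasses was 2.61 in METH and 1.52 in saline on the log2 scale, past 2-fold with its interval in both, as for 0.628% of genes. In saline the next subclass, Syt6 at 161 CPM from few nuclei, was within counting error of it. In the Vwc2l clusters the level was 882 CPM (836 to 931) in METH and 982 CPM (920 to 1047) in saline. The next group, the Tll2 clusters, had 199.9 CPM in METH and 175 CPM in saline.

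Foxp2, Tbr1 and Tle4 belong to corticothalamic neurons of the deepest layer. Foxp2 is a forkhead repressor, Tbr1 a T-box factor that sets this identity, and Tle4 a Groucho-type corepressor that binds no DNA by itself. All 3 were highest in the Syt6 gate in both libraries. Foxp2 (ENSRNOG00000054508) had 1821 CPM (1701 to 1947) in METH and 1588 CPM (1400 to 1794) in saline Syt6 nuclei, followed by Vwc2l in METH (277 CPM) and Vat1l in saline (305 CPM). That is 3.60 in METH and 3.33 in saline on the log2 scale over the other gated subclasses, and 0.454% of genes passed 2-fold there. Tle4 (ENSRNOG00000013239) had 592 CPM (524 to 666) in METH and 803 CPM (671 to 954) in saline Syt6 nuclei, 1.99 and 2.56 on the log2 scale over the others. Tbr1 (ENSRNOG00000005049) was flatter, with 136 CPM (105 to 174) from 64 UMIs in METH and 105 CPM (61.2 to 168) from 17 UMIs in saline Syt6 nuclei, and passed 2-fold with its interval in METH alone (log2 1.89).

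The clusters kept Foxp2 and Tbr1 in the Syt6 nuclei and moved Tle4. Foxp2 had 1629 CPM in METH and 1564 CPM in saline Syt6 clusters, with Vwc2l second at 851 and 885 CPM. Tbr1 had 139.6 CPM (125 to 155) in METH and 111 CPM (98.4 to 125) in saline Syt6 clusters, with the Pld5 cluster second at 66.6 and 61.2 CPM. Tle4 led in the Vwc2l clusters of the METH library, at 722 CPM (680 to 766) against 632 CPM (601 to 665) in Syt6. It led in the Syt6 clusters of the saline library, at 868 CPM (831 to 905), where Vwc2l at 805 CPM (749 to 864.5) was within counting error.

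In all, 5 factors (Cux2, Bcl11b, Foxp2, Tle4 and Etv1) passed 2-fold in their highest gated subclass in both libraries. In the clusters 7 did so in a highest group that was the same in both libraries (Cux1, Cux2, Rorb, Fezf2, Foxp2, Tbr1 and Etv1). The highest group was taken by the level alone, without its interval. For Rorb in METH and for Fezf2 in saline the leading groups were within counting error of each other. Bcl11b and Tle4 were left out because their order changed between the libraries, though in saline their leading groups were also within counting error. Over all genes measured, the share past 2-fold in both libraries was 0.0872% in the Hgf gate, 0.157% in Tll2 and up to 1.34% in the Vat1l gate. In the clusters it was 1.71% in Otof, 1.13% in Hgf, 0.613% in Tll2, 2.33% in Vat1l, 3.58% in Vwc2l, 1.74% in Syt6 and 0.767% in the Pld5 cluster. Each of these shares is for a single gate or cluster, while each factor was counted wherever it was highest. The share of genes past 2-fold in any gate or in any cluster would be larger and was not counted. The shares given are thus too low to set directly beside the 5 and 7 factors. The Vwc2l cluster ranked first or second in both libraries for 5 factors (Fezf2, Bcl11b, Foxp2, Tle4 and Etv1).

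**Figure D2:**
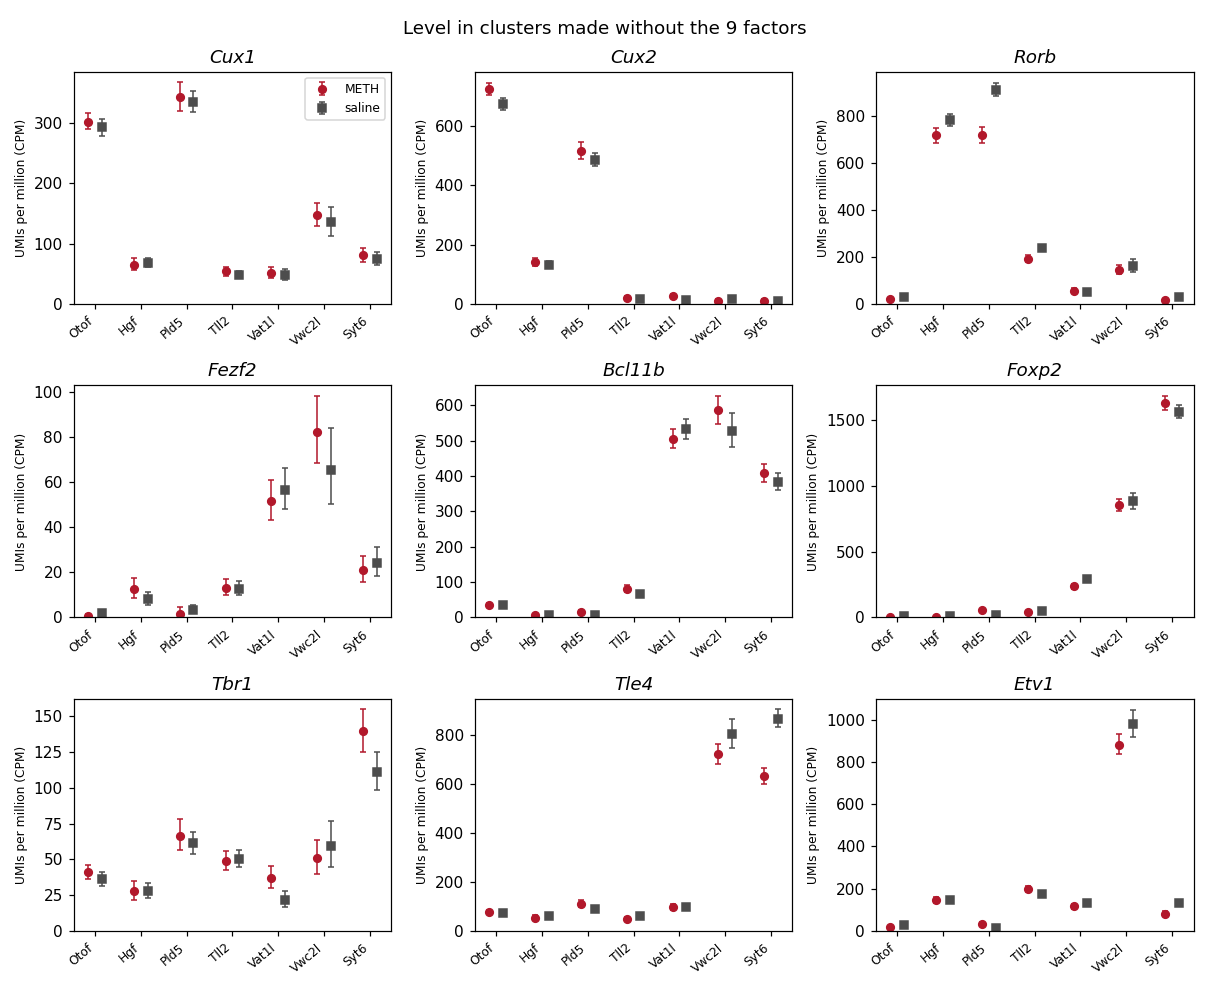
Level of each factor (CPM) in the 7 excitatory clusters that were made without the factors, with 1 point per library (METH and saline) and bars for the 95% Poisson interval. Rorb and Cux1 are high in the Pld5 cluster, Etv1 stands alone in the Vwc2l cluster, and Foxp2 is highest in the Syt6 cluster in both libraries.

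The shares of nuclei with a UMI followed the levels. Every nucleus was thinned to 2000 UMIs so that depth did not set the share. Cux2 was then seen in 72.9% (62.9 to 81.5) of METH and 70.0% (56.8 to 81.2) of saline Otof nuclei, while unthinned it was seen in 96.9% and 86.7%. Foxp2 was seen in 100% (93 to 100) of METH and 87.5% (67.6 to 97.3) of saline Syt6 nuclei. Bcl11b was seen in 51.3% of METH and 62.4% of saline Vat1l nuclei, and Etv1 in 51.3% and 36.0% of Vwc2l nuclei. The background was read in oligodendrocyte clusters, the myelinating glia, where 143 METH and 95 saline nuclei were deep enough. There Cux2 was seen in 0.70% of METH and 2.11% of saline nuclei, Foxp2 in 1.4% and 6.32%, and Bcl11b in 2.10% and 2.11%. In gated oligodendrocytes the shares were higher, 5.41% in METH and 11.9% in saline for Cux2, 4.32% and 14.1% for Foxp2 and 5.41% and 9.04% for Bcl11b. Cux1 was seen in 34.3% of METH and 29.5% of saline oligodendrocyte cluster nuclei. Among gated excitatory nuclei it was seen in 45.8% of METH and 40% of saline Otof nuclei, but in only 10.3% and 10.6% of Vat1l and 7.84% and 8.33% of Syt6 nuclei. Fezf2 reached only 14.1% (7.26 to 23.8) of METH and 10.6% (4.96 to 19.2) of saline Vat1l nuclei, against 0% (0 to 2.55) of METH and 1.05% of saline oligodendrocytes.

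Several pairs of deep-layer factors were found in the same nuclei more often than their separate shares predict, and Cux2 was found with most of them less often. Over 981 METH and 1196 saline excitatory nuclei thinned to 2000 UMIs, 7 of the 36 pairs lay above the product of their shares with their interval in both libraries, and 10 lay below it. Foxp2 and Tle4 shared 109 nuclei in METH, 2.37 times the product (1.95 to 2.86), and 109 in saline, 2.93 times (2.41 to 3.54). Bcl11b and Foxp2 shared 2.44 times the product in METH and 2.45 times in saline, Fezf2 and Bcl11b 2.42 and 2.57 times, and Cux1 and Cux2 1.72 and 1.55 times. At the other end Cux2 and Foxp2 shared 3 METH nuclei, 0.0482 times the product, and 7 saline nuclei, 0.126 times. Rorb and Bcl11b shared 0.28 times the product in METH and 0.242 times in saline. In the larger set of excitatory cluster nuclei (2133 METH, 3471 saline), 13 pairs lay above and 10 below. Cux1 and Rorb stood near the product there, at 1.03 times in METH and 1.13 times in saline.

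**Figure D3:**
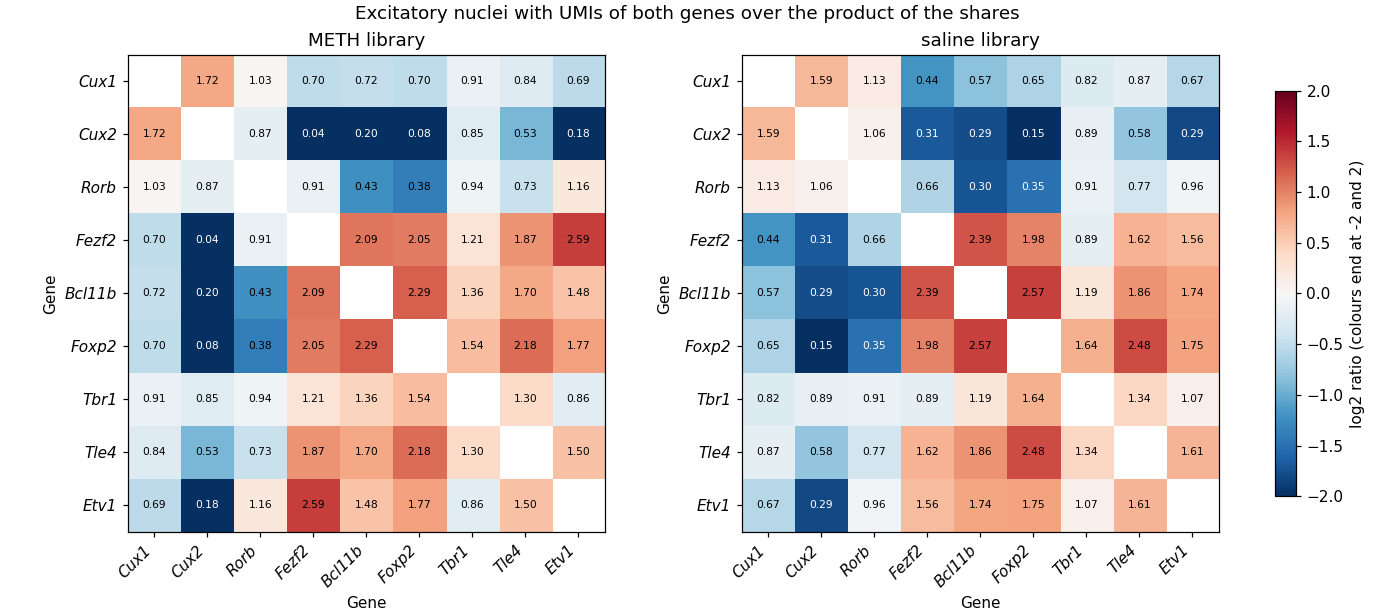
Nuclei with UMIs of both factors of a pair divided by the number that the product of their separate shares gives, for all 36 pairs over excitatory cluster nuclei thinned to 2000 UMIs, METH left and saline right, on a log2 colour scale. Bcl11b, Foxp2, Tle4, Etv1 and Fezf2 form a block above 1 in both libraries, and Cux2 with Foxp2 lies far below 1 at 0.076 in METH and 0.148 in saline.

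For each factor the genes with the most similar levels over the 6 gated subclasses in both libraries were found among 8195 genes. The measure was Pearson's r of log2(CPM + 1) over these 12 points, which share libraries and depth, and it is a description. The closest were Gpc6 (0.96) for Cux2, Plk5 (0.88) for Cux1, Cast (0.94) for Rorb, Auh (0.93) for Fezf2, Sema3c (0.96) for Bcl11b, Antxr1 (0.95) for Foxp2, Lhfpl6 (0.85) for Tbr1 and Col24a1 (0.94) for Etv1. The closest for Tle4 was a gene listed as AABR07021704.1 (0.97), followed by Glra2 (0.92). Over the 14 cluster points r was lower for each of these genes, at 0.62 for Gpc6, 0.76 for Auh, 0.77 for Col24a1 and 0.72 for Lhfpl6, and the gated points include Tll2 with 9 METH and 8 saline nuclei. Sema3c encodes a secreted guidance cue for axons and Col24a1 a fibrillar collagen. Among the factors themselves Bcl11b and Foxp2 were most alike, with r of 0.80 over the gated points and 0.88 over the 14 cluster points.

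Several of the factors were at least as high outside projection neurons. Rorb was highest in astrocytes, where it had 1330 CPM (1265 to 1397) from 1579 UMIs in METH and 1432 CPM (1362 to 1504) from 1591 UMIs in saline gated nuclei. That is 2.61 in METH and 2.03 in saline on the log2 scale over excitatory nuclei, past 2-fold as for 10.5% of genes in this comparison. It was the only factor past 2-fold in both libraries in another gated class with at least 50 nuclei in each library. Gated microglia (30 METH and 41 saline nuclei) and oligodendrocyte precursors (45 and 44) were too few to be counted. In the 20 METH and 35 saline microglia named alike by gate and cluster, Cux1 had 827 and 729 CPM, from 23 and 40 UMIs. Excitatory nuclei named alike had 167 CPM of it in METH and 153 CPM in saline. The share of genes past 2-fold was 6.79% in oligodendrocytes, 5.31% in inhibitory nuclei, 4.28% in endothelial nuclei, 2.81% in oligodendrocyte precursors, 2.22% in mural nuclei and 1.82% in microglia. After thinning, 87.5% of METH and 88.9% of saline astrocyte cluster nuclei had a Rorb UMI. Etv1 was high in oligodendrocyte precursor clusters, at 354 CPM in each library, 1.28 in METH and 1.42 in saline over the excitatory clusters (past 2-fold for 6.63% of genes), a size not reached with its interval in the gated precursors. Foxp2 had 343 CPM in METH and 332 CPM in saline endothelial clusters, from only 60 and 56 UMIs.

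In inhibitory nuclei, those with the GABA synthesis and transport genes Gad1, Gad2 or Slc32a1, Cux2 had 400.2 CPM in METH and 360.2 CPM in saline. It was higher in the part marked by Lhx6, Nxph1 and Sox6, genes of interneurons from the medial ganglionic eminence, with 545 CPM in METH and 467 CPM in saline. The part marked by Adarb2 and Prox1, genes of interneurons from the caudal eminence, had 141 CPM in METH and 125 CPM in saline. Bcl11b had 175 CPM in METH and 157 CPM in saline inhibitory nuclei. Fezf2 and Tbr1 were almost absent there, at 1.27 and 1.42 CPM in METH and 1.27 and 1.53 CPM in saline.

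**Figure D4:**
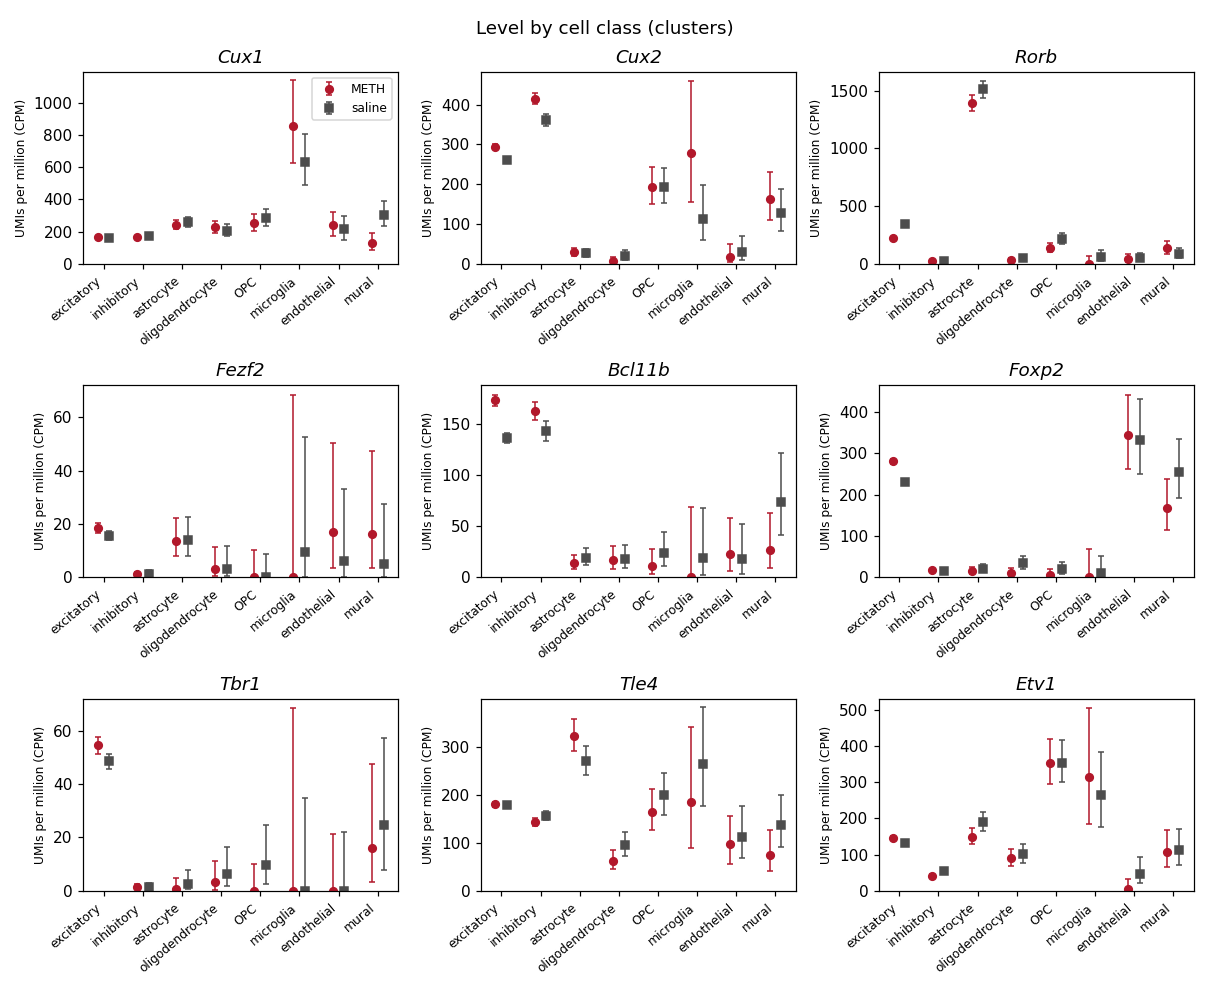
Level of each factor (CPM) in the clusters of each cell class, excitatory to mural, with 1 point per library (METH and saline) and bars for the 95% Poisson interval. Rorb is higher in astrocyte than in excitatory clusters of both libraries, Foxp2 is high in excitatory, endothelial and mural clusters, and Tbr1 is near 0 in inhibitory and astrocyte clusters.

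Between the libraries, Rorb was lower in METH excitatory nuclei and was the only factor past 1.5-fold there. It had 2444 UMIs and 218 CPM in METH and 3368 UMIs and 349.9 CPM in saline gated excitatory nuclei, a log2 ratio of METH over saline of −0.68 (−0.76 to −0.61). Of the 7146 genes measured, 0.308% passed 1.5-fold with their interval in either direction and 0.21% passed it downward. The call sits close to the threshold, since scaling by TMM gave −0.65 and by median-of-ratios −0.65, each with a bound inside 1.5-fold. The other factors differed little. The largest was Foxp2 at 0.37 (0.28 to 0.46), with 218 CPM in METH and 168.5 CPM in saline, followed by Bcl11b at 0.27. Fezf2 stood at 0.27 (−0.06 to 0.61) but did not count as measured, with 16.7 CPM in METH and 13.8 CPM in saline, under the limit of 20 CPM. Cux1 stood at 0.17, Cux2 at 0.16, Tbr1 at 0.12, Etv1 at 0.11 and Tle4 at 0.02. The median of the 8 measured factors was 0.14, against −0.01 over all genes measured.

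Within the single excitatory clusters the difference in Rorb was smaller than over all excitatory nuclei, except in the Syt6 cluster. Over all excitatory clusters it was −0.66 (−0.71 to −0.61), called downward as for 0.224% of genes, and in none of the 7 clusters was it called. Downward calls there made up 0.0704% of genes in the Pld5 cluster, 0.14% in Hgf, 0.226% in Tll2, 0.298% in Otof, 0.246% in Syt6, 0.242% in Vat1l and 0.1% in Vwc2l. It was −0.34 (−0.43 to −0.26) in the Pld5 cluster, −0.12 in Hgf, −0.31 in Tll2, −0.16 in Vwc2l and 0.20 in Vat1l. It was −0.55 in the Otof and −0.92 in the Syt6 clusters, which are both low in Rorb. With the 7 groups weighted alike, the ratio was −0.24, from a mean of 268 CPM in METH and 316 CPM in saline. The clusters richest in Rorb made up less of the METH library. The Pld5 cluster was 10.4% of METH and 17.3% of saline excitatory cluster nuclei and gave 33.7% and 42.8% of their Rorb UMIs, and Hgf was 11.9% and 15.6% of nuclei and gave 39.2% and 36.6%. The part of these shares in the Rorb ratio was not tested, and it cannot be told apart from other differences between the libraries.

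**Figure D5:**
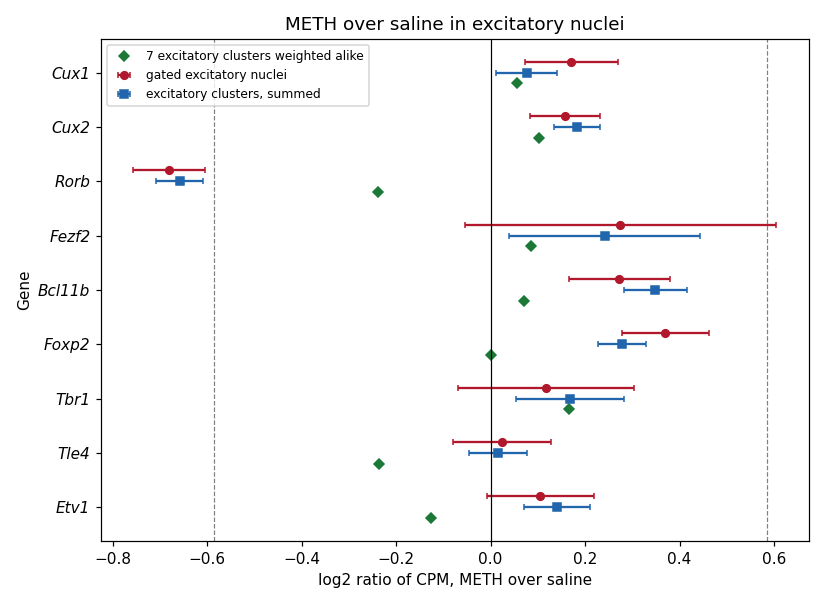
Log2 ratio of METH over saline for each factor in gated excitatory nuclei (circles), in the excitatory clusters summed (squares), both with 95% exact conditional intervals, and with the 7 excitatory clusters weighted alike (diamonds, no interval). Dashed lines mark 1.5-fold. Rorb lies at −0.68 and −0.66 over the sums, past the left line, and at −0.24 with the clusters weighted alike.

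In the gated subclasses, Bcl11b and Foxp2 were higher in METH Vwc2l nuclei. Bcl11b had 222 UMIs and 189.8 CPM in METH and 134 UMIs and 82.5 CPM in saline, a log2 ratio of 1.20 (0.89 to 1.52). Foxp2 had 324 UMIs and 277 CPM in METH and 239 UMIs and 147 CPM in saline, a log2 ratio of 0.91 (0.67 to 1.16). Of the 5096 genes measured, 0.353% passed 1.5-fold upward. Etv1 at 0.71, Tle4 at 0.66 and Rorb at −0.61 were not past the threshold with their interval. The nuclei this gate caught were not the same mix, since 41.7% of the METH (48 of 115) and 21.2% of the saline ones (40 of 189) lay in the Vwc2l clusters, and 13.9% and 31.2% lay in the Pld5 cluster. In the gated nuclei that also lay in the Vwc2l clusters Bcl11b had 545 CPM in METH and 516 CPM in saline, and Foxp2 806 and 858 CPM. Over the whole Vwc2l clusters the ratios were 0.15 for Bcl11b, −0.06 for Foxp2, −0.15 for Etv1, −0.16 for Tle4 and −0.16 for Rorb, none of them past 1.5-fold. None of the 3 factors measured in the Otof gate and none of the 6 measured in the Vat1l gate was called. Of all genes measured there 0.331% and 0.158% were, so the lack of a call among so few factors says little about them. Cux2 in Otof nuclei had a ratio of −0.02 (−0.20 to 0.16), an interval that lies within 1.5-fold on both sides.

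Foxp2 was also higher in the METH library in gated inhibitory nuclei and in the Pld5 cluster. The inhibitory nuclei had 316 UMIs and 44.8 CPM of it in METH and 51 UMIs and 13.0 CPM in saline, a log2 ratio of 1.78 (1.35 to 2.24), called upward as for 0.119% of genes. Without the nuclei marked by Meis1 and Pbx3 it was 1.13, from 28.5 CPM in METH and 13.0 CPM in saline. Of the 1047 METH gated inhibitory nuclei 86 lay in 1 cluster that had no class name, and none of the saline ones did. In the inhibitory clusters Foxp2 had 17.5 CPM in METH and 14.6 CPM in saline, a ratio of 0.27 that was not called, while 0.0265% of genes were. In the Pld5 cluster Foxp2 had 125 UMIs and 54.1 CPM in METH and 67 UMIs and 16.1 CPM in saline, a ratio of 1.74 (1.31 to 2.20), called upward as for 0.0422% of genes. Only 24 of 224 METH and 38 of 607 saline nuclei had a Foxp2 UMI, and 1 METH nucleus carried 22.4% of the 125. With nuclei thinned to 2000 UMIs the levels were 15.7 CPM in METH and 13.2 CPM in saline, and 2.24% and 2.31% of nuclei had a UMI. Few Foxp2 UMIs were left after thinning, so these values cannot tell whether the excess holds at equal depth. Of the 7 factors measured in the Pld5 cluster 6 had ratios above 0, and only Foxp2 was called. Among them Etv1 had 32.0 CPM in METH and 15.9 CPM in saline, from 74 and 66 UMIs, with 14.9% of the METH ones in 1 nucleus.

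Cux2 was lower in METH gated oligodendrocytes, with 34 UMIs in METH and 110 in saline, a ratio of −1.41. In these glia 2.61% of genes passed 1.5-fold downward. All 7 measured factors had ratios below 0 in this gate, with a median of −0.60 against −0.10 over all genes. The excitatory marker Slc17a7 was also lower in these nuclei, at 49.9 CPM in METH and 87.5 CPM in saline. The Otof clusters, where Cux2 is highest, held 2 of the 322 METH and 8 of the 441 saline gated oligodendrocytes, and the oligodendrocyte clusters 84.2% and 80.5%. The part of such nuclei in the ratio was not tested. In the oligodendrocyte clusters Cux2 had 4 UMIs in METH and 12 in saline, too few to measure.

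Relatives of the 9 factors and other transcription factors of projection neurons did not pass 1.5-fold in gated excitatory nuclei. Only 0.308% of the 7146 genes measured there passed it in either direction, so the lack of a call in lists this short says little about them. Of 14 listed paralogs 7 were measured and 0 were called in either direction, with a median of −0.08. The largest were Tle2 at −0.44, Tle1 at −0.33, Bcl11a at 0.15 and Foxp1 at −0.14. Of 28 other listed factors 26 were in the gene tables, 14 were measured and 0 were called, with a median of −0.04. The largest were Emx1 at −0.37, Mef2c at −0.34, Zfpm2 at 0.30 and Nfia at 0.27. Some of these showed subclass patterns of their own. Nfia, a nuclear factor I protein, and Zfpm2 were past 2-fold higher in Syt6 nuclei in both libraries, by gate and by cluster, and Nfia and Ldb2 in Vat1l nuclei. Zfpm2, known as Fog2, is a cofactor of corticothalamic neurons in the mouse, and Ldb2 an adaptor of LIM-domain factors.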

How the data were processed

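Nuclei of the orbitofrontal cortex were profiled with 10x Genomics 3' single-nucleus chemistry, per the labels' protocols. Raw UMI counts of each gene in each barcode were deposited by the authors as matrices. The submitters' processing notes name Cell Ranger 7.0.0 as the tool. They also name hg38, a human build, while the gene tables carry rat Ensembl identifiers, and a rat build is not given.

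Nuclei needed 500 genes or more and no more than 5% mitochondrial UMIs, and Scrublet doublets (328 METH, 401 saline) were removed with scanpy 1.11.5. A nucleus took a class where the class's gate markers had at least 2 UMIs and 75% of all gate-marker UMIs, and a subclass by the same limits over the 6 subclass markers. Sv2b, Col1a2 and some check markers were not measured here, so Slc17a7 alone set the excitatory class. Leiden clusters (2000 variable genes without the 9 factors, 30 components, 15 neighbours, resolution 1) gave 25 clusters; a cluster took a class at a marker level of 0.4 with no second class at 0.75 of it, limits that were set after the clusters were seen.

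UMIs were summed per set of nuclei and scaled to CPM. Ratios have exact conditional binomial intervals, levels exact Poisson intervals and shares Clopper-Pearson intervals, all at 95%, all for counting error only. A METH over saline ratio was measured from 100 UMIs summed over the libraries and 20 CPM in one of them, in sets of at least 50 nuclei in each library, and called where the ratio and the bound nearest to 0 passed 1.5-fold. Subclass and class ratios were called past 2-fold in both libraries, and other classes were counted only with at least 50 nuclei in each. A count of 0 is given as up to 3 UMIs. The intervals and the fold limit were tried on simulated counts with Poisson error, which is the error they assume. An uneven spread of UMIs over nuclei and differences between libraries were not simulated. Scaling by edgeR 4.0.16 TMM factors and DESeq2 1.42.0 size factors, other gates, filters, thinning to 1000 UMIs and weights were alternatives. All 9 factors are named, with at most 4 genes per fixed list by size of the ratio and the 2 most similar genes per factor searched. The members and lists were chosen with earlier results of these data known.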

Additional observations from a re-analysis of the deposited data

Results flagged for a closer look

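One cluster without a class name, led by Ndst4, Ptpro, Pbx3, Trdn and Meis1, held 198 METH nuclei and 1 saline nucleus and entered no comparison by cluster. In the METH library 4 factors were there at 20 CPM or more and at least 2-fold their level in the METH inhibitory clusters. Cux1 had 371.9 CPM from 401 UMIs, Foxp2 218.9 CPM from 236 UMIs, Etv1 150.2 CPM from 162 UMIs and Tbr1 20.4 CPM from 22 UMIs. The other 5 did not meet this, with Bcl11b at 237 CPM, Tle4 at 193 CPM, Cux2 at 121 CPM, Rorb at 17.6 CPM and Fezf2 with no UMI. With 1 saline nucleus no level can be set beside them. Of the gated METH inhibitory nuclei 86 lay in this cluster, the set in which Foxp2 was higher than in saline. So did 33 of the 985 gated METH excitatory nuclei. The cluster took no class because its inhibitory marker level, 0.39, was close to that of its leading class, 0.403. The METH excitatory clusters had 168 CPM of Cux1, 280 CPM of Foxp2, 146 CPM of Etv1 and 54.5 CPM of Tbr1. Foxp2 and Tbr1 were thus lower in this cluster than in those.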

How the results depend on the processing

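No paired analysis was possible because each group has 1 library. Of the recomputed counts over the factors 79 stayed within 1.5 times their value and 16 did not. The count of factors past 1.5-fold in excitatory nuclei, 1 as reported, was 0 in gated nuclei lying in a cluster of the same name, with TMM factors, with DESeq2 size factors, with totals without the most abundant gene and with nuclei thinned to 2000 UMIs, and 2 with nuclei matched on UMIs, where Foxp2 at 0.81 was added. The ratio of Rorb kept its sign in all 18 alternatives, from −0.72 to −0.24. The scalings moved the median gene by 0.02 to 0.03, and fewer UMIs widen the intervals under thinning. The count past 1.5-fold in at least 1 gated subclass, 2 as reported, was 1 with a gate of at least 3 UMIs, 1 with the Leiden clusters, 0 in gated nuclei lying in a cluster of the same name, 0 after thinning, 4 with matched nuclei and 8 with equal weight per nucleus, a setting that uses the fold without an interval. The count past 2-fold in the highest subclass, 5 as reported, was 3 when thinned and 8 with nuclei weighted alike. The count past 2-fold in another class, 1 as reported, was 2 with the Leiden clusters. Pairs seen together above the product of shares numbered 13 in place of 7 with the Leiden clusters. Foxp2 in Vwc2l nuclei was reversed, at −0.056, with the Leiden clusters, where the uncalled Etv1 and Tle4 also turned to −0.15 and −0.16. The cause of these shifts was not tested except where stated. The gates of Hgf, Tll2 and Syt6 held too few nuclei to compare METH with saline, and cluster names and the equal weighting of clusters were chosen after seeing the data.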

Other observations

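Among small clusters without a class name, Foxp2 had 1029 CPM from 70 UMIs over 33 METH nuclei in one and 408 CPM from 35 UMIs over 42 METH nuclei in another. The second held 17 saline nuclei with 689 CPM from 21 UMIs, and the first only 3 saline nuclei. Tbr1 had no UMI in either cluster.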
